A study of Mus musculus with 12 samples.

Results

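Transcripts of 10 genes that encode microtubule-associated proteins (MAPs) and stathmins were examined in mouse lower motor neurons that carried 0, 1 or 2 copies of the Q331K mutation in TDP-43. The rule that picks the genes goes by name and family, and they are 10 of 25965 entries in the count table. Mapt, Stmn1, Stmn2, Stmn3 and Stmn4 are listed under these symbols. Map1a, Map1b, Map2, Map4 and Map6 are listed under the older symbols Mtap1a, Mtap1b, Mtap2, Mtap4 and Mtap6, and these 5 were matched through RefSeq synonyms at overlapping positions. All 10 passed the filter on low counts and are among 16338 tested genes.

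Microtubules are the tracks of axonal transport, and a motor axon holds them over a very long distance. Structural MAPs such as tau, MAP2 and the MAP1 proteins bind along the microtubule wall and stabilise it, whereas stathmins bind free tubulin dimers and favour disassembly. TDP-43, encoded by Tardbp, is an RNA-binding protein that leaves the nucleus of motor neurons in amyotrophic lateral sclerosis (ALS). In human neurons, loss of nuclear TDP-43 lets a cryptic exon into the RNA of STMN2, a stathmin needed for axon maintenance and regrowth, and the full-length transcript falls. The sequence that gives this cryptic exon is not conserved in the mouse gene.

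RNA sequencing was done on lumbar motor neurons cut by laser from C57BL/6 mice aged 5 months. The genotypes were wild type (+/+), heterozygous (Q331K/+) and homozygous (Q331K/Q331K) for the knock-in allele, with 4 libraries each and 12 in all. In a knock-in the mutation sits in the mouse's own Tardbp gene, so no other promoter drives it. Nothing in the labels ties a library to an animal, so p-values measure the spread between libraries, which may be technical. Total counts ran from 60886825 to 83504446 per library. Values are CPM, counts scaled to a common library total after TMM normalisation, and differences are log2 values from edgeR. Their SEs and 95% intervals are approximate, as they were derived from each difference and the F statistic of its edgeR test. A gene was called at a Benjamini-Hochberg adjusted p below 0.05 over all 16338 tested genes. For Tardbp, wild type libraries averaged 73.7 ± 7.68 CPM, heterozygotes 73.0 ± 5.48 CPM and homozygotes 75.6 ± 2.17 CPM (SD, n = 4 each), and a point mutation cannot be checked from gene counts.

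Replicate 1 of the heterozygotes and replicate 1 of the homozygotes stood apart from the other 10 libraries in cell type markers. Summed over 10 inhibitory interneuron markers they held 14.6 and 10.0 CPM, against 422 to 896 CPM in the others. Excitatory interneuron markers summed to 0.958 and 5.08 CPM against 177 to 330 CPM. The 13 motor neuron markers in the table summed to 13470 and 13820 CPM against 5325 to 9656 CPM. Differences from wild type that moved by over 1.5 times without these 2 libraries are given both ways, beside the result or, for Stmn1 and Stmn3, among the processing alternatives. In such captures, fewer cells of a type and less RNA per cell cannot be told apart.

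The levels of the 10 transcripts in wild type spanned a wide range when divided by length. Per kb of annotated exon, Stmn3 was the most abundant at 2347 ± 182 CPM per kb (SD, n = 4). Stmn2 followed at 748 ± 129 CPM per kb and Map1b at 303 ± 65.4 CPM per kb. Stathmin transcripts therefore held the first and second place per kb. Division by length takes reads to be spread evenly along a transcript, which gene counts cannot show. Stmn1, the founding stathmin, which is expressed in many cell types, was at 102 ± 32.3 CPM per kb. The 4 wild type libraries of each of these genes did not overlap those of the next gene in the order.

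Below them the order was closer and depended on the length used. Per kb of all exons, Map6 was at 47.8 ± 5.04, Map1a at 40.5 ± 2.29, Mapt at 30.4 ± 1.22, Map2 at 25.8 ± 2.33, Stmn4 at 23.8 ± 6.76 and Map4 at 14.8 ± 0.86 CPM per kb (SD, n = 4). The wild type ranges of Map2 and Stmn4 overlapped. Per kb of the longest coding transcript, a length chosen after seeing the data, Map2 ranked above Map1a and Mapt at 44.5 ± 4.03, and Map4 above Stmn4 at 34.6 ± 2.02 CPM per kb. The places of Stmn3, Stmn2, Map1b, Stmn1 and Map6 were the same with both lengths. Before division by length the order differed. Over all libraries, Map1b was then the 6th most abundant entry of the whole table, Stmn3 the 21st and Stmn2 the 41st.

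**Figure D1:**
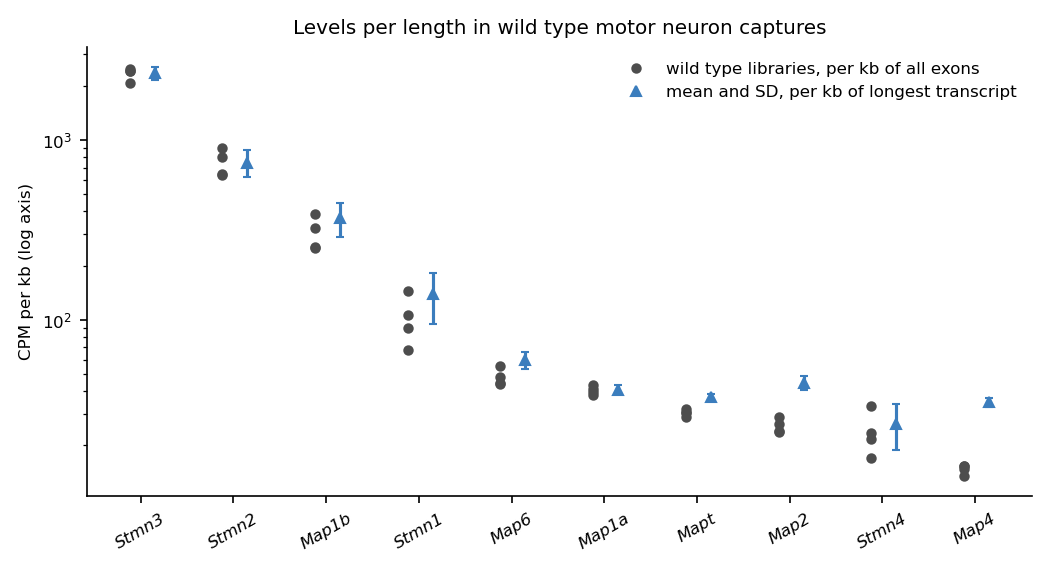
Levels of the 10 transcripts in wild type, in CPM per kb on a log axis. Circles are the 4 wild type libraries divided by the length of all annotated exons, and triangles with bars are the mean and SD with the length of the longest coding transcript. Stmn3 and Stmn2 lie highest with both lengths, and Map2 and Map4 move most between them.

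The transcripts also differed in how much they varied among the 12 libraries. Map2, Mapt, Stmn3 and Map4 were the steadiest, with coefficients of variation of 6.37%, 7.11%, 7.14% and 8.3%. Map6 was at 10.4%, Stmn4 at 19.4% and Stmn1 at 19.8%. Map1b at 23.9%, Stmn2 at 29.1% and Map1a at 33.9% varied most. The 2 libraries that stood apart held the highest values of Map1b and Stmn2 and the lowest of Map1a. In the other 10 libraries Stmn2 ran from 1315 to 1871 CPM and Stmn1 from 97.0 to 207 CPM. Coefficients were not computed without the 2 libraries, so this order holds for all 12 only.

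Stmn2, the growth-associated stathmin of neurons (ENSMUSG00000027500), spans 8509527 to 8561604 of chromosome 3 (plus strand, GRCm38) and overlaps no other entry of the table. It had 90566 to 208050 counts per library. The library kits add no molecular identifiers, so these counts do not give the number of RNA molecules sampled. Wild type libraries 1 to 4 held 1871, 1668, 1345 and 1315 CPM. Heterozygote libraries held 2930, 1586, 1662 and 1573 CPM, and homozygote libraries 2915, 1683, 1812 and 1631 CPM. Replicate 1 of each mutant genotype was high, and the other 6 mutant libraries lay within the wild type range.

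Wild type averaged 1550 ± 267 CPM, heterozygotes 1938 ± 663 CPM and homozygotes 2010 ± 608 CPM (SD, n = 4 each). Stmn2 was not called in either mutant. Homozygotes were at 0.38 against wild type on the log2 scale (SE 0.23, interval -0.13 to 0.88, edgeR adjusted p = 0.986), a fold between 0.913 and 1.84. Heterozygotes were at 0.32 against wild type (interval -0.18 to 0.83, edgeR adjusted p = 0.999). Without the 2 libraries that stood apart (16574 genes tested), the differences were 0.14 (interval -0.10 to 0.38) in homozygotes and 0.06 (interval -0.18 to 0.30) in heterozygotes. The lower bound in homozygotes was thus -0.13 with all libraries and -0.10 with 10.

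TDP-43 binds runs of alternating G and U. The longest annotated coding transcript of each gene in GENCODE M21 was therefore searched on its own strand for GTGTGT or longer repeats of GT (DNA letters). A T just before or a G just after such a run was left out of its length, and TGTGTG alone was not counted. Stmn2 held 1 such run, in its 3′ UTR. Of all 21901 coding genes, 58.3% held at least 1 run, and 6 of the 10 genes here did. Mapt held 3 runs and Map6 held 5, all in the 3′ UTR, with a longest run of 8 bases, which 17.7% of coding genes reached. Map1a, Map4 and Map2 held 1 each, that of Map2 within the coding sequence. The longest run of 4 of these genes is shown in capitals within 30 bases of the transcript, since GU runs are what the mutated protein binds.
Stmn2: atcgtgggtactGTGTGTccatgtgaacct
Mapt: gggtaacgtggGTGTGTGTgccccttctgc
Map6: gcatgtggccaGTGTGTGTagcgagtcctg
Map1a: tgctatggcctgGTGTGTaatgggttaaac

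No GTGTGT was found in the transcripts of Map1b, Stmn1, Stmn3 or Stmn4. Among coding transcripts of 1 to 2.5 kb, the length range of the 4 stathmins, 43% held a run, and among those of 5 to 20 kb 90.2% did. The match describes letters in spliced RNA, and introns were not searched.

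Stmn3, another neuronal stathmin (ENSMUSG00000027581), spans 181306459 to 181314500 of chromosome 2 (minus strand) and was nearly level across genotypes. Wild type libraries held 2359, 2747, 2804 and 2756 CPM, heterozygotes 2368, 2808, 2570 and 2709 CPM, and homozygotes 2869, 2491, 2912 and 2537 CPM. The 3 ranges overlapped almost fully. The difference between homozygotes and wild type was 0.02 (interval -0.15 to 0.19, a fold of 0.9 to 1.14) and that between heterozygotes and wild type -0.03 (interval -0.20 to 0.14).

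Stmn1 (ENSMUSG00000028832, plus strand of chromosome 4, 134468320 to 134473843) was most variable within wild type. Its wild type libraries held 207, 97.0, 152 and 129 CPM, which enclosed all 8 mutant values, from 124 to 202 CPM. The difference was 0.22 in homozygotes (interval -0.20 to 0.64) and 0.01 in heterozygotes (interval -0.40 to 0.43).

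Stmn4, the least abundant stathmin and largely neuronal (ENSMUSG00000022044), spans 66344296 to 66361680 of chromosome 14 (plus strand). Heterozygote libraries held 29.1, 28.7, 27.5 and 34.3 CPM, and homozygote libraries 36.5, 41.1, 37.2 and 33.6 CPM. Wild type spread across both, at 25.7, 32.7, 49.98 and 35.5 CPM. Homozygotes were at 0.31 against heterozygotes (SE 0.18, interval -0.07 to 0.70, edgeR adjusted p = 1), and the groups overlapped in 1 heterozygote library.

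Tau, MAP2 and MAP4 share a carboxy-terminal microtubule-binding domain. Tau is concentrated in axons and MAP2 in dendrites and cell bodies, while MAP4 is found in many cell types. Map4 (ENSMUSG00000032479, plus strand of chromosome 9, 109931458 to 110083947) was the member with the smallest unadjusted p of any comparison. Wild type libraries held 212, 193, 218 and 220 CPM. Heterozygote libraries held 174, 177, 180 and 193 CPM, and homozygote libraries 200, 200, 198 and 176 CPM.

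Every heterozygote library lay below every wild type library, although replicate 4 of the heterozygotes (192.7 CPM) and replicate 2 of wild type (193.2 CPM) nearly touched. Of all tested genes, 1.76% were lower in heterozygotes without overlap. The means were 211 ± 12.3 and 181 ± 8.29 CPM (SD, n = 4 each), and the log2 difference of -0.22 (SE 0.08, interval -0.39 to -0.06) was not called in edgeR (unadjusted p = 0.0118, adjusted p = 0.999). It was -0.20 without the 2 libraries that stood apart. Homozygotes lay between, at 193 ± 11.4 CPM and -0.12 against wild type (interval -0.29 to 0.04), so the means did not follow the number of mutant copies.

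Mapt, which encodes tau (ENSMUSG00000018411), spans 104231390 to 104332090 of chromosome 11 (plus strand). Wild type libraries held 196, 198, 204 and 185 CPM. Heterozygotes held 163, 203, 180 and 198 CPM, and homozygotes 166, 185, 194 and 190 CPM. Replicate 1 was the lowest of each mutant genotype. The differences from wild type were -0.09 in homozygotes (interval -0.28 to 0.10) and -0.07 in heterozygotes (interval -0.26 to 0.12), and -0.04 and -0.01 without those 2 libraries.

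For Map2 (ENSMUSG00000015222, plus strand of chromosome 1, 66175273 to 66442583), wild type averaged 279 ± 25.2 CPM, heterozygotes 291 ± 14.0 CPM and homozygotes 301 ± 9.63 CPM (SD, n = 4 each). The ranges overlapped, and the highest wild type library (311 CPM) exceeded all homozygote libraries. The difference in homozygotes was 0.11 (interval -0.06 to 0.28), a fold of 0.961 to 1.21. An overlapping entry on the other strand, Gm10558, had 2.06% as many counts.

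The MAP1 proteins are long filamentous MAPs cut into heavy and light chains. MAP1B is best known from growing axons, and MAP1A from mature neurons and dendrites. Map1a (ENSMUSG00000027254) spans 121289600 to 121310832 of chromosome 2 (plus strand). Wild type libraries held 473, 516, 487 and 451 CPM. Heterozygotes held 145, 605, 314 and 451 CPM, and homozygotes 162, 412, 440 and 373 CPM.

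All 4 homozygote libraries were lower than all wild type libraries for Map1a, a pattern seen in 2.12% of tested genes. The wild type libraries were close together, whereas heterozygotes held both the lowest and the highest value of all 12. Wild type averaged 482 ± 27.3 CPM, heterozygotes 379 ± 196 CPM and homozygotes 347 ± 126 CPM (SD, n = 4 each). Homozygotes were at -0.48 against wild type on the log2 scale (SE 0.37, interval -1.28 to 0.33, edgeR adjusted p = 0.99), a fold of 0.413 to 1.25. Without the 2 libraries that stood apart it was -0.24 (interval -0.61 to 0.13, edgeR adjusted p = 0.999), with homozygotes at 408 ± 33.8 CPM (SD, n = 3). In heterozygotes the difference moved from -0.35 to -0.07.

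Map1a overlaps Ppip5k1, an inositol phosphate kinase gene on the other strand, in 272 exon bases. A second entry on that strand, Gm14978, also overlaps it. The library kits keep no strand, so reads there cannot be assigned. Ppip5k1 had at most 127 CPM, and it was at 79.0 and 71.1 CPM in the 2 libraries that stood apart, against 85.0 to 127 CPM in the others.

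Map1b (ENSMUSG00000052727, minus strand of chromosome 13, 99421464 to 99516602) overlaps no other entry. Wild type libraries held 5519, 4606, 3561 and 3607 CPM. Heterozygotes held 6826, 4155, 4067 and 3461 CPM, and homozygotes 5989, 4321, 3986 and 3747 CPM. Replicate 1 was the highest of every genotype, and the ranges overlapped. The differences from wild type were 0.06 in homozygotes (interval -0.41 to 0.53) and 0.10 in heterozygotes (interval -0.38 to 0.57). Both had the opposite sign without the 2 libraries that stood apart, at -0.10 and -0.15.

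The MAP1 genes went opposite ways in the libraries that stood apart. Their promoters are shown from 250 bases before to 50 bases after the RefSeq start in GRCm38.p6. Any part of promoter sequence in those levels was not tested. Capitals mark matches on either strand. A promoter element known as the TATA box was searched as TATAAA, the GC box was searched as GGGCGG, and the core of the cyclic AMP response element was searched as TGACGT. The fourth motif, named after its own letters, was CCAAT. That of Map1a is chr2:121289352-121289651 on the plus strand, and that of Map1b is chr13:99516553-99516852 on the minus strand.
Map1a: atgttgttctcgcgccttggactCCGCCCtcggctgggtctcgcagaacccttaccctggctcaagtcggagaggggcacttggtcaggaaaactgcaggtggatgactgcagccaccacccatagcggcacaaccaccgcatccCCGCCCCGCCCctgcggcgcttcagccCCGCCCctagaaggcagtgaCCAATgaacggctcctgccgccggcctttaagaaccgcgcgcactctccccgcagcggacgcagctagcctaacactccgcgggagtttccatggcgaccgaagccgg
Map1b: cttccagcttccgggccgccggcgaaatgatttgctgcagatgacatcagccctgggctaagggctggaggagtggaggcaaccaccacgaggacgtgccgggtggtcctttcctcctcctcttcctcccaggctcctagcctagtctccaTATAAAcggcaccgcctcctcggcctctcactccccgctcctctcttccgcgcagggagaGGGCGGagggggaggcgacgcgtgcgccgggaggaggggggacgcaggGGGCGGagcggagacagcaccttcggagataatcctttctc

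Both windows were 65.7% G or C, against a median of 52.7% over 32851 promoters. The Map1a window held 4 GC boxes, a pair of them overlapping, and 1 CCAAT box. The Map1b window held 2 GC boxes and 1 TATA box. Of all promoters, 35.7% held a GC box, 37.4% a CCAAT box, 13.6% a TATA box and 7.51% the cyclic AMP element core, which neither window held. RefSeq promoters of 5 of the 10 genes were in the table used here.

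Map6, also called STOP, makes microtubules resistant to cold and drugs (ENSMUSG00000055407, plus strand of chromosome 7, 99267447 to 99337137). Wild type libraries held 336, 292, 272 and 270 CPM, heterozygotes 381, 307, 303 and 297 CPM, and homozygotes 337, 289, 293 and 289 CPM. Replicate 1 was again the highest of each genotype, and the other 6 mutant libraries lay between 289 and 307 CPM. The differences from wild type were 0.05 in homozygotes (interval -0.18 to 0.27) and 0.14 in heterozygotes (interval -0.09 to 0.37), and -0.01 and 0.05 without the 2 libraries.

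**Figure D2:**
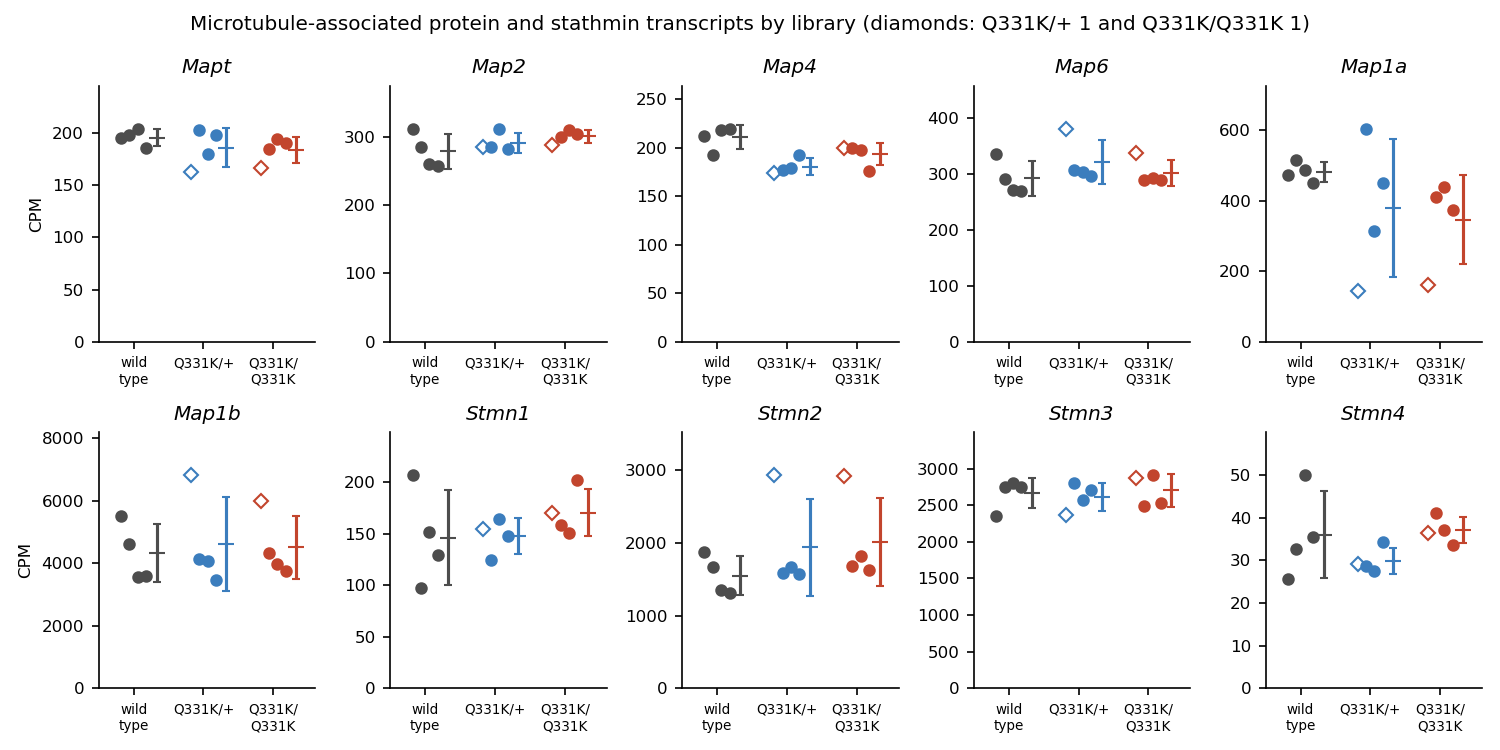
CPM of the 10 transcripts in each of the 12 libraries, by genotype, on linear axes from 0. Points are libraries, horizontal ticks with bars are the mean and SD of 4 libraries, and open diamonds are replicate 1 of each mutant genotype, which lie high for Stmn2, Map1b and Map6 and low for Map1a and Mapt.

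Counted over the 10 genes, none was called in any comparison. Homozygotes against wild type gave 0 of 10, with 7 higher and 3 lower and a median log2 difference of 0.05, while 0.00612% of all tested genes were called (1 gene) and their median was -0.003. At an unadjusted p below 0.05 there were 0 of the 10, against 4.82% of all genes, and DESeq2 and limma-voom also called 0 of the 10. Heterozygotes against wild type gave 0 of 10, with 5 in each direction and a median of -0.01, and 0% of all genes were called. Map4 was the 1 gene of the 10 at an unadjusted p below 0.05, against 4.1% of all genes. Homozygotes against heterozygotes gave 0 of 10 called (0% of all genes), with a median of 0.05. In that comparison 0 of the 10 had an unadjusted p below 0.05, against 2.97% of all genes.

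A test of any difference among the 3 genotypes called 0 of 10 (0% of all genes), and Map4 had the smallest unadjusted p (0.0363, edgeR adjusted p = 1), in a test where 3.59% of all genes had an unadjusted p below 0.05. The comparisons with wild type share the 4 wild type libraries. Between homozygotes and wild type, 1 of the 10 genes did not overlap (Map1a, lower), against 3.41% of all genes in either direction, 1.29% higher and 2.12% lower. Between heterozygotes and wild type it was 1 of 10 (Map4, lower), against 3.24% in either direction, 1.48% higher and 1.76% lower. Between the mutants it was 0 of 10, against 2.03% in either direction, 1.03% higher and 0.998% lower. The intervals set what these data leave room for. For Mapt, Map2, Map4, Map6 and Stmn3 in homozygotes, they lay between a fold of 0.819 (Map4) and 1.21 (Map2). For Map1a, Map1b, Stmn1, Stmn2 and Stmn4 they were wider, from 0.413 (Map1a) to 1.84 (Stmn2).

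**Figure D3:**
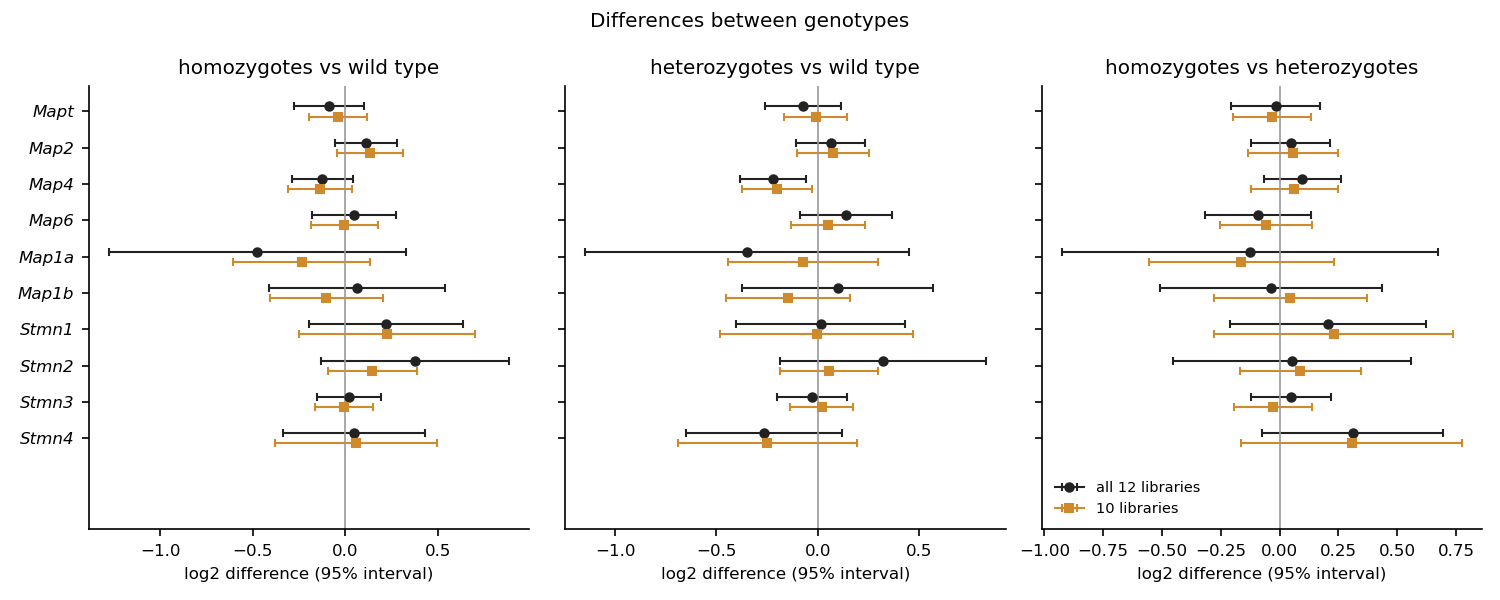
Log2 differences of the 10 transcripts between each pair of genotypes, with approximate 95% intervals derived from the F statistic of edgeR. Circles use all 12 libraries and squares the 10 without replicate 1 of each mutant genotype. The interval of Map4 between heterozygotes and wild type is the only one that does not reach 0 in either fit, and the intervals of Map1a and Stmn2 narrow most without the 2 libraries.

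Genes that act on microtubules beside these members were listed in 6 groups, and 0 members of any group were called in any comparison of 2 genotypes. Of 24 other structural MAPs tested, 13 were higher and 11 lower in homozygotes than in wild type, with a median log2 difference of 0.01. The 3 smallest p-values belonged to Dclk3, Tppp3 and Dclk1. For Tppp3, a tubulin polymerisation-promoting protein, wild type averaged 771 ± 238 CPM and homozygotes 1170 ± 537 CPM (SD, n = 4 each). Dclk1, a doublecortin-like kinase, averaged 174 ± 50.3 and 223 ± 62.3 CPM. Dclk3 was at 0.949 ± 0.812 CPM and 0.0559 ± 0.112 CPM, so few reads that no fold is given. Both Tppp3 and Dclk1 lay above the range of the rest in the 2 libraries that stood apart. Between homozygotes and wild type their log2 differences were 0.60 and 0.36 with all libraries and 0.23 and 0.15 without those 2.

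Proteins that bind microtubule ends and enzymes that cut microtubules gave homozygote medians near 0. Of 18 end-binding proteins, 8 were higher and 10 lower in homozygotes (median -0.03). Mapre2, an end-binding protein, averaged 259 ± 3.36 and 232 ± 15.4 CPM, Clip1, a plus-end linker, 77.1 ± 5.7 and 65.0 ± 10.7 CPM, and Camsap2, which protects minus ends, 32.6 ± 3.23 and 40.2 ± 6.17 CPM. Of 8 severing enzyme genes, 3 were higher and 5 lower in homozygotes (median -0.02). In heterozygotes 2 were higher and 6 lower than in wild type (median -0.16), against a median of -0.001 over all tested genes. With limma-voom the heterozygote median of these 8 genes was -0.09, and this median was not tested. For Katnal1, a katanin subunit, wild type averaged 103 ± 4.62 CPM, heterozygotes 84.7 ± 5.13 CPM and homozygotes 83.8 ± 7.08 CPM (SD, n = 4 each). Its difference of -0.29 (SE 0.09) in homozygotes had an unadjusted p of 0.00513 and an edgeR adjusted p of 0.986. It was -0.23 without the 2 libraries that stood apart (edgeR adjusted p = 0.873). For Clip1 the difference was -0.25 with all libraries and -0.14 without them. Katnbl1, a katanin-like gene, averaged 10.9 ± 3.7 and 9.38 ± 2.63 CPM in wild type and homozygotes.

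Tubulin-modifying enzymes, which add or remove glutamates, tyrosine or acetyl groups, were higher in 14 and lower in 8 of 22 cases (median 0.03). For Ttll5, a polyglutamylase, wild type averaged 61 ± 8.36 CPM and homozygotes 45.9 ± 10.3 CPM (unadjusted p = 0.0407, edgeR adjusted p = 0.986), Ttll11 24.8 ± 2.87 and 18.1 ± 2.8 CPM, and Ttll3, a glycylase, 42.3 ± 2.33 and 48.0 ± 7.11 CPM. Of 34 kinases and phosphatases that act on MAPs and stathmins, 13 were higher and 21 lower (median -0.03). The 3 smallest p-values of that list were those of Ppp2cb, Ppp2ca and Ppp2r2c, which encode subunits of protein phosphatase 2A (unadjusted p = 0.0403, 0.0813 and 0.11, edgeR adjusted p = 0.986 for each). Ppp2cb averaged 83.5 ± 5.17 and 72.1 ± 7.23 CPM, Ppp2ca 754 ± 31.6 and 687 ± 42.9 CPM, and Ppp2r2c 111 ± 9.71 and 85.2 ± 19.8 CPM. Without the 2 libraries that stood apart, the log2 difference went from -0.41 to -0.26 for Ttll5, from 0.18 to 0.08 for Ttll3 and from -0.38 to -0.23 for Ppp2r2c. Another subunit gene, Ppp2r2b, lay above the range of the rest in both of those libraries, and Ppp2r2c below it.

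The last list held 11 genes linked to palmitoylation of stathmins or to axon maintenance, whether they act for or against it. Of these, 4 were higher and 7 lower in homozygotes (median -0.09), and also 4 and 7 in heterozygotes (median -0.16). The list medians therefore give no direction for axon maintenance. The heterozygote medians of the other lists lay between -0.06 (end-binding proteins) and 0.06 (tubulin-modifying enzymes), severing enzymes apart. Zdhhc3 and Zdhhc7 encode palmitoyl transferases, and palmitoylation anchors STMN2 to membranes. Zdhhc3 averaged 161 ± 13.9 and 134 ± 20.2 CPM (unadjusted p = 0.0381, edgeR adjusted p = 0.986), with a log2 difference of -0.27 with all libraries and -0.17 without the 2 that stood apart. Zdhhc7 averaged 50 ± 6.9 and 41.9 ± 6.9 CPM. Nmnat2, an enzyme that keeps axons alive, averaged 106 ± 12 and 92.2 ± 14.3 CPM (SD, n = 4 each).

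The 2 libraries that stood apart lay outside the range of the rest for 5 of the 10 transcripts. Both exceeded all of the other 10 libraries for Stmn2, Map1b and Map6, and were below all of them for Map1a and Mapt. Stmn2 was 1.78 and 1.77 times the median of the other 10 libraries, Map1b 1.7 and 1.49 times and Map6 1.3 and 1.15 times. The median of the others was 3.11 and 2.79 times the level of Map1a, and 1.2 and 1.17 times that of Mapt. Map4 was below the range in the heterozygote library alone, and Map2, Stmn1, Stmn3 and Stmn4 lay within it in both. Of all tested genes, 10.3% lay above in both libraries and 10.6% below in both. These 2 libraries were picked for their marker levels in earlier work on the same data, and no test compared them with the other 10. Dixon's test within each genotype, given further below, also covered them.

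**Figure D4:**
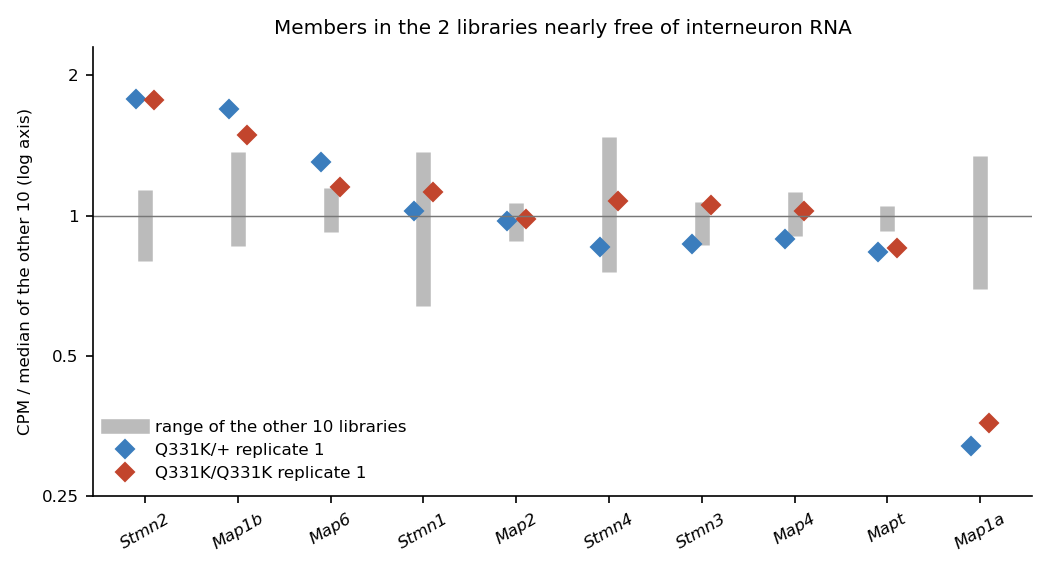
Level of each transcript in replicate 1 of the heterozygotes and of the homozygotes, divided by the median of the other 10 libraries, on a log axis. Grey bars are the range of the other 10. Stmn2, Map1b and Map6 lie above the bars, and Mapt and Map1a below.

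Ratios between paralogues within a library follow from the levels given above. The CPM of Map1b was 47.1 times that of Map1a in heterozygote replicate 1 and 37 times in homozygote replicate 1, against 6.87 to 12.9 times in the other 10 libraries. Per kb of exon these ratios were 39.4 and 30.9 against 5.74 to 10.8. The CPM of Stmn2 was 1.24 and 1.02 times that of Stmn3 in the 2 libraries, against 0.477 to 0.793 times elsewhere. These libraries had been picked because earlier results showed them almost free of interneuron RNA, so the marker values below describe that choice and do not add to it. Gad2, Lhx5 and Evx1 were at 0 in both and above 0 in all of the others, while Tlx3 and Lmx1b, at 0 in both, reached only 0.303 and 0.112 CPM elsewhere. In all, 8 of 10 inhibitory and 3 of 7 excitatory markers lay below the range of the others, while 8 of 13 motor neuron markers lay above it and 2 below (Esrrg and Lhx3). Summed oligodendrocyte markers were 1209 and 1630 CPM within a range of 951 to 2853 CPM, oligodendrocyte precursor markers 66.8 and 57.2 CPM within 24.7 to 81.6 CPM, and microglia markers 71.8 and 86.5 CPM within 53.1 to 106 CPM. Astrocyte markers summed to 1549 and 1657 CPM against 1631 to 2160 CPM. That sum hid opposite shifts in Aldoc and S100b. Aldoc, with 467 and 511 CPM, fell short of its span elsewhere (791 to 1280 CPM). S100b, with 979 and 1010 CPM, exceeded its own (594 to 737 CPM). No other astrocyte marker lay on the same side of its span in both libraries. Endothelial markers summed to 607 and 663 CPM against 101 to 275 CPM, of which Itm2a alone was 596 and 640 CPM, while Pecam1 was at 0.507 and 0.493 CPM. The part of these markers in the levels of the 10 genes was not tested.

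The same markers also varied among the other 10 libraries. Wild type replicate 1 had the highest summed motor neuron markers of the 10 (9656 CPM) and the lowest inhibitory interneuron markers (422 CPM), and it also had the highest Stmn2 (1871 CPM), Map1b (5519 CPM), Map6 (336 CPM) and Stmn1 (207 CPM), but the lowest Stmn3 (2359 CPM) and Stmn4 (25.7 CPM). Wild type replicate 4 had the lowest motor neuron (5325 CPM) and highest inhibitory interneuron markers (896 CPM), and the lowest Stmn2 (1315 CPM) and Map6 (270 CPM), but ranked 8th of 10 for both Map1b and Stmn1. Map1a and Mapt, both low in the 2 libraries that stood apart, did not follow. In wild type replicates 1 and 4 Map1a was at 473 and 451 CPM, and Mapt at 196 and 185 CPM. Stmn2 therefore spanned 1315 to 1871 CPM within wild type alone, a range that held all mutant libraries other than replicate 1.

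**Figure D5:**
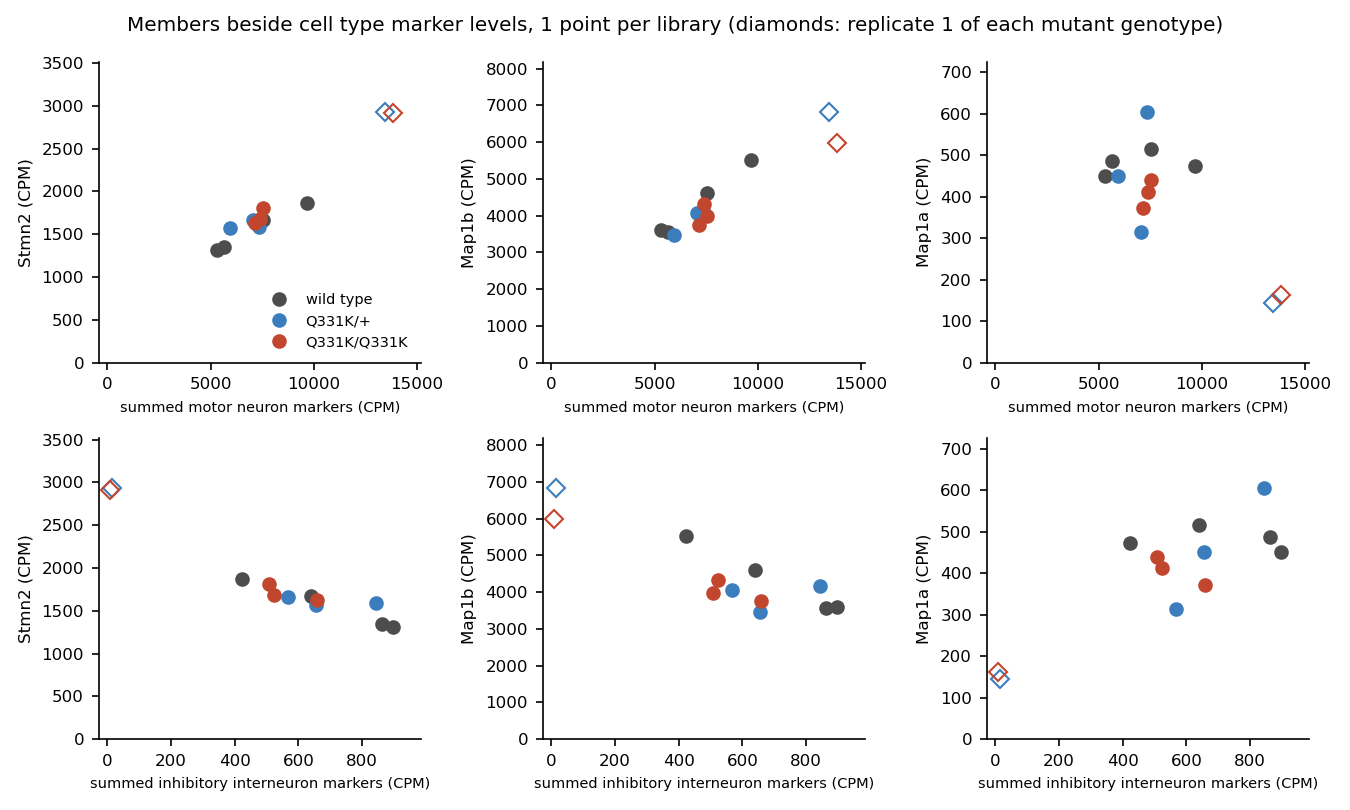
CPM of Stmn2, Map1b and Map1a in each library against the summed CPM of motor neuron markers (top) and of inhibitory interneuron markers (bottom), on linear axes. Each point is 1 library, coloured by genotype, and open diamonds are replicate 1 of each mutant genotype, which lie at the far end of both marker axes.

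The genes whose pattern over the 12 libraries was most like that of Stmn2 were 6330512M04Rik, Tubb3 and Slc25a1. Likeness was the root mean square difference of log2 CPM after each gene was centred on its own mean, which was 0.07, 0.08 and 0.09 for these genes, against a median of 0.53 over all tested genes. Stmn2 itself deviated from its mean by 0.35 on this scale. Tubb3, the neuronal beta tubulin, was at 2964 and 2838 CPM in the 2 libraries that stood apart and at 1397 to 2080 CPM in the others. Slc25a1, the mitochondrial citrate carrier, was at 580 and 555 CPM against 234 to 352 CPM.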

How the data were processed

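The authors deposited raw counts per gene for 12 libraries. Per the labels' protocols, RNA of laser-captured cells was copied with a template-switching kit and tagged with a transposase kit, which add no molecular identifiers and keep no strand. Trim Galore 0.4.3, HISAT2 2.0.5 and build GRCm38 are named in the submitters' processing notes. The sources used here do not give the counting program or its annotation release. The deposited counts were filtered with filterByExpr and fitted with edgeR 4.0.16 (quasi-likelihood, TMM factors 0.94 to 1.03, genotype as group, all 12 libraries) in R 4.3.3, after the fit was tested on simulated data. Alternatives were DESeq2 1.42.0, limma-voom (limma 3.58.1), other scaling and filters, a replicate block, only the 8 libraries compared, and libraries left out. Log2 CPM used a prior count of 2. Exons came from GENCODE M21 and promoters from RefSeq. The genes and lists were chosen with earlier results of these data known. All 10 members were named, with Tardbp, the 3 smallest p-values of each list and the 3 genes most like Stmn2, except for values that are not reported here. Of the list genes, Fignl2 was not matched, nor was the marker Slc18a3, and Map7d3 and Agbl2 did not pass the filter.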

Additional observations from a re-analysis of the deposited data

Results flagged for a closer look

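Of 30 sets of 4 libraries (10 genes in 3 genotypes), 7 held a library far from the other 3 by Dixon's test at the 95% level. Chance gives this in about 1 of 20 independent sets. The 10 genes share the same libraries, so these sets are not independent and their number cannot be judged by that rate. The flags of Stmn2 and Map6 fell in the libraries already known to stand apart. Stmn2 was at 2930 CPM in heterozygote replicate 1 and at 2915 CPM in homozygote replicate 1, against 1573 to 1662 and 1631 to 1812 CPM in the other libraries of each genotype. Map6 was at 381.1 and 337.3 CPM in the same libraries, against 296.9 to 306.7 and 289 to 293.3 CPM. Map2 was at 312 CPM in heterozygote replicate 3 (281.9 to 285.1 CPM in the others), Map4 at 176.4 CPM in homozygote replicate 4 (197.5 to 200.1 CPM) and Stmn3 at 2359 CPM in wild type replicate 1 (2747 to 2804 CPM).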

How the results depend on the processing

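None of the 10 genes was called in any of 20 alternatives to each comparison, and 17 of their 30 differences kept their sign in all of them. Over all genes, the 1 call between homozygotes and wild type became 13 with DESeq2 and 0 without a filter, with only the 8 libraries compared, without both libraries that stood apart, and on leaving out any single library (0 to 0). DESeq2 called 9 genes in heterozygotes against wild type, 3 between the mutants and 5 for any difference. The cause was not tested.

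Signs turned for some differences, among them that of Katnbl1 between homozygotes and wild type (-0.213 with all libraries). With limma-voom Stmn3 (-0.024) and Tardbp (-0.005) turned between homozygotes and wild type, and Map1b between the mutants (0.038). Without both libraries that stood apart, Map1b (-0.10), Map6 (-0.006) and Stmn3 (-0.008) turned between homozygotes and wild type, Map1b (-0.15), Stmn1 (-0.006) and Stmn3 (0.02) between heterozygotes and wild type, and Map1b (0.044) and Stmn3 (-0.028) between the mutants. On leaving out single libraries, the homozygote differences ran from -0.10 to 0.21 for Map1b, -0.003 to 0.13 for Map6, -0.027 to 0.057 for Stmn3, -0.077 to 0.25 for Stmn4, -0.028 to 0.073 for Tardbp and -0.39 to 0.031 for Katnbl1. The heterozygote differences ran from -0.15 to 0.24 for Map1b, -0.14 to 0.23 for Stmn1, -0.081 to 0.016 for Stmn3 and -0.083 to 0.043 for Tardbp. Those between the mutants ran from -0.40 to 0.19 for Map1a, -0.20 to 0.21 for Map1b, -0.14 to 0 for Map6, -0.076 to 0.035 for Mapt, -0.18 to 0.32 for Stmn2 and 0 to 0.084 for Tardbp. The libraries share only a replicate number. Deviations of same-numbered libraries correlated above 0.1 in 3 of 12 pairs, all of them between replicate 1 libraries. These were 0.454 between the mutants, and 0.106 (heterozygote) and 0.114 (homozygote) with wild type. Among pairs with different numbers the highest was 0.127 (heterozygote 2 and homozygote 4). In all, 4 of 12 libraries were closest to one of their own number. With the replicate block, 1 gene was called between homozygotes and wild type and 0 of the 10 genes in any comparison. Levels per kb of Mapt, Map2, Map4, Map6 and Stmn1 moved by more than their SD with the length of the longest transcript, an alternative chosen after seeing the data.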

Other observations

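Some other microtubule genes also lay outside the span of the remaining 10 libraries both in heterozygote replicate 1 and in homozygote replicate 1. Of 24 other structural MAPs, 6 lay above it (Map1s, Map7d1, Map7d2, Map9, Dclk1 and Tppp3) and 2 below (Dcx and Mtcl1), beside 10.3% and 10.6% of all tested genes. Tppp3 reached 1850 and 1950 CPM against 543 to 1050 CPM. Dclk1 reached 335 and 315 CPM against 129 to 238 CPM. Of 34 kinases and phosphatases, 5 lay above and 6 below, among the latter Camk2a, Camk4 and Gsk3a. Of 11 genes linked to palmitoylation or axon maintenance, whether they act for or against it, 0 lay above and 3 below (Map3k12, Mycbp2 and Gap43). Of 18 end-binding proteins, 4 lay above and 1 below, of 22 tubulin-modifying enzymes 5 and 2, and of 8 severing enzymes 0 and 1 (Katnal1, at 77.2 and 73.6 CPM against 85.1 to 107 CPM). The named genes were picked after their values were seen, and no test was run.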
